A study of Mus musculus with 4 samples.

Results

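The genes described here are those of glycolysis and lactate transport in the postnatal mouse retina, in cells sorted by activity of the Hes1 promoter. They were chosen by name, as a fixed list of 39 symbols, with earlier results of these data known. The list covers the glycolytic isozymes, the Pfkfb enzymes, the pyruvate dehydrogenase kinases and E1 subunits, the carriers of glucose and lactate, basigin and Hif1a. Of the 39 symbols, 38 were found among 21828 genes. The symbol Pkm had no line of its own and was skipped, since pyruvate kinase of muscle type is listed under its older symbol Pkm2.

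In EGFP-positive cells 6 mRNAs stood higher by more than 1 on the log2 scale at both ages: the glucose carrier Slc2a1, the enzymes Pgk1 and Eno1, the kinase Pdk3 and the lactate carriers Slc16a1 and Slc16a3. Eno2 and Pdk2 were lower in EGFP-positive cells at both ages. Another 7 members passed the threshold at P4 and not at P1. Of the members 15.8% were higher at P1 and 34.2% at P4, against 6.1% and 9.85% of all genes. Among abundant members these shares were 22.2% and 41.4%, against 11.5% and 16.6% of abundant genes. Lower were 5.26% of the members at each age, against 6.79% of all genes at P1 and 5.42% at P4. Under 3 other scalings of the libraries, Pgk1 and Pdk3 lost a call at 1 age or both, and the other 4 kept theirs. Much of the transcript sequence of Pgk1, Eno1 and Pkm2 also occurs elsewhere in the genome, so their levels are uncertain under any scaling. The abundant mRNAs Pkm2 and Aldoa were nearly level between the fractions. Ldha was lower in EGFP-positive cells at both ages without passing the threshold.

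Glycolysis splits glucose into pyruvate and yields ATP without oxygen. Pyruvate then either enters the mitochondria through pyruvate dehydrogenase or is reduced to lactate by lactate dehydrogenase, and lactate leaves or enters cells through monocarboxylate transporters, which need the chaperone basigin. The retina is known for making much lactate even where oxygen is present, a trait ascribed above all to photoreceptors, while Müller glia, the main glial cell of the retina, take up glucose and exchange lactate with their neighbours. Many steps are run by isozymes from separate genes that differ in kinetics and in the tissues that use them.

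Total RNA was sequenced from retinal cells of transgenic mice (strain FVB/N per the labels) that carry a fragment of the Hes1 promoter followed by a destabilized EGFP, and no treatment was given to any group. EGFP-positive cells (pHes1_EPC) and EGFP-negative cells (pHes1_ENC) were sorted at postnatal day 1 (P1) and postnatal day 4 (P4), and each of the 4 groups is 1 library. All groups carry the transgene, and a fraction is defined by EGFP from this promoter and not by cell type. With 1 library in each group there was no replicate check, so no p-value is given, and every difference below describes these libraries.

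The fractions were checked first. Hes1 had an FPKM (a read count scaled by transcript length and by library size) of 16.6 in pHes1_ENC and 105 in pHes1_EPC at P1, while P4 gave 3.59 and 93.5. The Müller glia gene Glul was at 96.9 and 253 at P1, and at 49.3 and 278 at P4. Of 9 Müller glia genes, 8 were higher in pHes1_EPC at P1, all but Clu, and 9 at P4. The rod gene Nrl was at 164 and 8.51 at P1 and at 875 and 184 at P4, so that the P4 pHes1_EPC library held more of it than the P1 pHes1_ENC library. The 8 cell cycle markers were all higher in pHes1_EPC at both ages. The pHes1_EPC libraries therefore hold transcripts of dividing cells and, at P4, of rods beside those of glia. In bulk samples, fewer cells of a type and less RNA per cell cannot be told apart.

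A difference is log2(FPKM + 1) in 1 library minus that in the other, and it was called when it passed 1 in size. Ranges of ratios come from the 95% intervals that Cufflinks gives each FPKM and cover counting error only. For members at or above an FPKM of 10 the half-width of the interval was between 1.05% and 11.5% of the FPKM. In each library 9 to 12 members had an FPKM outside its own interval, and the ratios use the FPKM as deposited.

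The main glucose carrier passed the threshold at both ages. Slc2a1 (chr4:118781350-118809934 in mm9), the GLUT1 carrier of glia, endothelium and red cells, had an FPKM of 109.9 in pHes1_ENC and 392 in pHes1_EPC at P1, while P4 gave 111 and 345. Both pHes1_EPC libraries lay far above both pHes1_ENC libraries, and each fraction was near its own level at both ages. The P1 ratio was 3.57 (3.36 to 3.73) and the P4 ratio was 3.10 (2.91 to 3.25). Slc2a3, the GLUT3 carrier of neurons, was scarce throughout, at 4.50 and 2.35 in pHes1_ENC and pHes1_EPC at P1 and at 1.65 and 4.39 at P4. Its order reversed between the ages, with differences of -0.71 at P1 and 1.02 at P4. The P4 value fell under 1 with each of 3 other scalings of the libraries. Slc2a1 made up 96.1% to 99.4% of the summed FPKM of the pair.

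The hexokinases, which trap glucose in the cell by phosphorylating it, were the least abundant step. Hk1, the isozyme of most tissues, was at 15.9 in pHes1_ENC and 18.5 in pHes1_EPC at P1, and at 25.3 and 17.6 at P4. Hk2, the inducible isozyme, was at 3.52 and 5.11 at P1 and at 2.23 and 5.08 at P4, and its P4 difference of 0.91 stayed under the threshold. Hk3 was under 0.1 in every library. The summed FPKM of these 3 genes was 19.4, 23.7, 27.5 and 22.7 in P1 pHes1_ENC, P1 pHes1_EPC, P4 pHes1_ENC and P4 pHes1_EPC, the lowest of the 10 steps from glucose to pyruvate in all of these libraries.

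A hexokinase gene outside the list was more abundant in pHes1_EPC than any of these 3. Hkdc1, which encodes a further protein of the hexokinase family, was at 23.0 in pHes1_ENC and 97.2 in pHes1_EPC at P1, and at 6.30 and 124 at P4, with differences of 2.03 and 4.10. In the pHes1_EPC libraries Hkdc1 was 5.25 and 7.04 times as abundant as Hk1 at P1 and P4, per length, and in the pHes1_ENC libraries 1.45 and 0.249 times.

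**Figure D1:**
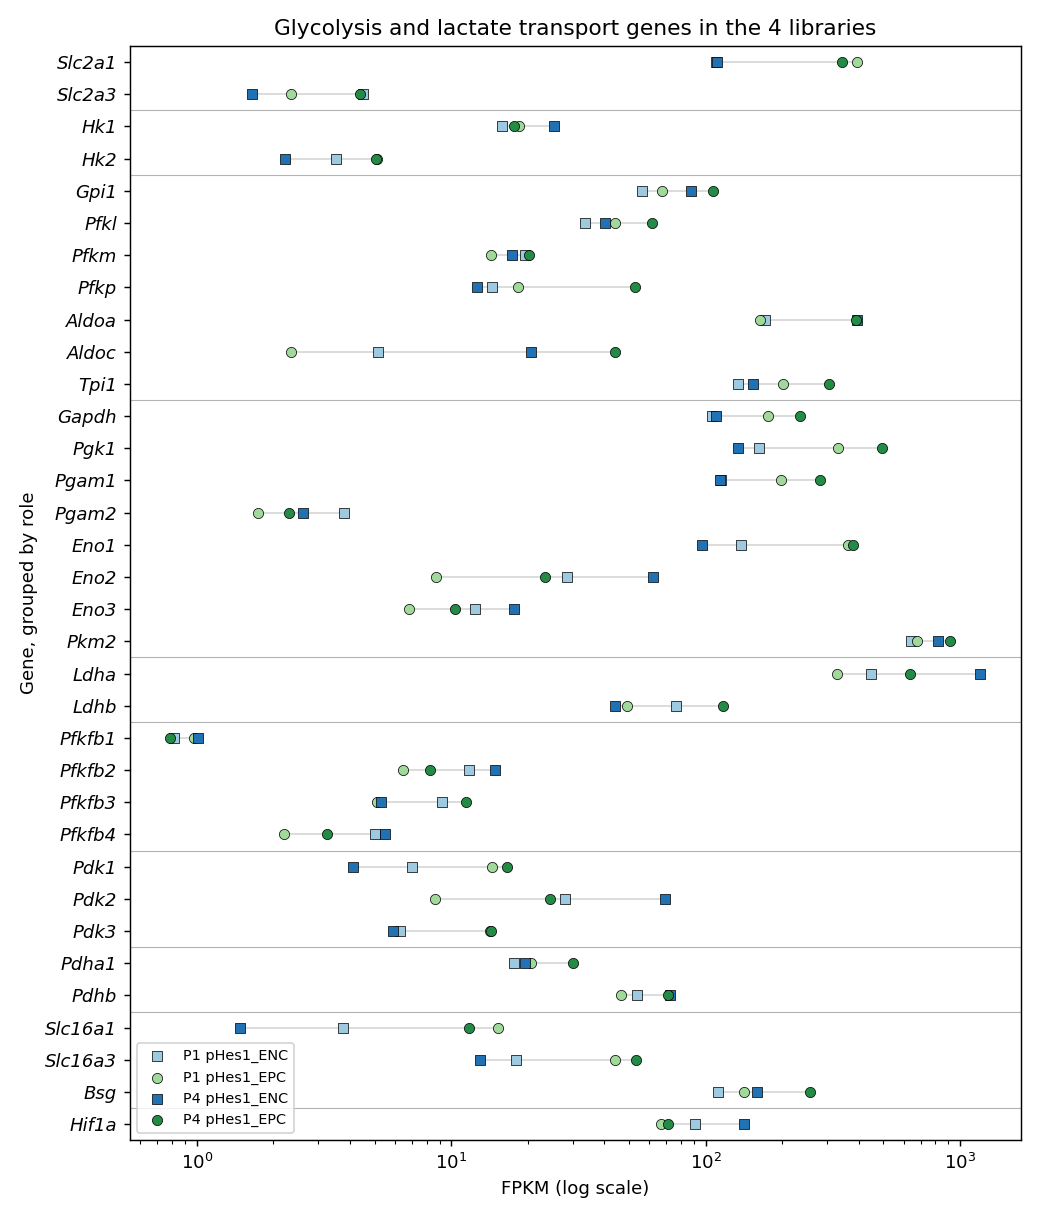
FPKM of the 34 members that reached an FPKM of 1 in at least 1 library (log scale, horizontal axis), by gene and grouped by role from the carriers of glucose at the top to Hif1a at the bottom. Squares are pHes1_ENC, circles are pHes1_EPC, pale points are P1 and dark points are P4, each from 1 library; in Slc2a1, Pgk1, Eno1, Slc16a1 and Slc16a3 both circles lie to the right of both squares, and in Eno2 and Pdk2 both circles lie to the left of the square of the same age.

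From the phosphorylated hexose to the triose phosphates, 2 of 7 enzymes passed the threshold, both at P4 only. Pfkp (chr13:6579120-6647970), the platelet-type phosphofructokinase, was at 14.5 in pHes1_ENC and 18.3 in pHes1_EPC at P1 and at 12.6 and 52.6 at P4. The P4 pHes1_EPC library stood alone, 4.18 times (3.80 to 4.67) as high as P4 pHes1_ENC and 2.87 times (2.64 to 3.18) as high as P1 pHes1_EPC. The liver type Pfkl was at 33.5, 44.2, 40.3 and 61.6 in P1 pHes1_ENC, P1 pHes1_EPC, P4 pHes1_ENC and P4 pHes1_EPC. The muscle type Pfkm ranged only from 14.4 to 20.1. Phosphofructokinase commits sugar to glycolysis, and at P4 its 3 genes together were 1.91 times as abundant in pHes1_EPC as in pHes1_ENC, against 1.14 times at P1.

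The aldolases changed with age more than with the fraction. Aldoa, the muscle-type aldolase and the main form here, was at 171 and 164 in pHes1_ENC and pHes1_EPC at P1 and at 394 and 391 at P4. Aldoc, the brain-type aldolase, was at 5.17 and 2.34 at P1 and at 20.5 and 43.9 at P4, so that pHes1_EPC went from the lower to the higher fraction. The P4 ratio of Aldoc was 2.14 (1.79 to 2.47), and its P4 difference of 1.06 fell under 1 with each of 3 other scalings. Gpi1, which converts glucose phosphate to fructose phosphate, was at 56.2 and 67.5 at P1 and at 87.7 and 107 at P4, ratios of 1.2 (1.11 to 1.30) and 1.21 (1.13 to 1.31). Tpi1, which interconverts the triose phosphates, was at 134 and 201 at P1 and at 154 and 306 at P4, and its P4 difference of 0.99 was the nearest to the threshold from below.

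The 4 enzymes that follow were higher in pHes1_EPC than in pHes1_ENC at both ages. Gapdh, the dehydrogenase that makes the NADH of glycolysis, was at 106 in pHes1_ENC and 176 in pHes1_EPC at P1 and at 110.0 and 235 at P4. Pgk1 (chrX:103382463-103399038), which makes the first ATP of the pathway, was at 163 and 331 at P1 and at 134 and 493 at P4. Pgam1, a phosphoglycerate mutase, was at 115 and 198 at P1 and at 114 and 281 at P4. In all 3 genes the pHes1_EPC library was the higher at each age and the P4 pHes1_EPC library was the highest of all. Eno1 (chr4:149611306-149622982), the enolase of most tissues, was at 138 and 361 at P1 and at 96.9 and 381 at P4, a ratio of 2.62 (2.47 to 2.79) and 3.93 (3.69 to 4.26). Pgk1 had a P1 ratio of 2.04 (1.91 to 2.15) and a P4 ratio of 3.68 (3.45 to 3.86). Its P1 difference of 1.02 was the nearest to the threshold from above and fell under it in 2 of 3 other scalings. Gapdh and Pgam1 passed the threshold at P4, at 1.09 and 1.29, and not at P1, at 0.73 and 0.78. The P4 call of Gapdh was lost with each of these scalings and that of Pgam1 with quantile normalization.

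Much of the sequence of these 4 genes also occurs elsewhere in the genome. Of the 36-base windows of the transcript, the length of the reads, 85.8% in Gapdh, 93.7% in Pgk1, 93.5% in Pgam1 and 75.9% in Eno1 also occur outside the gene, and Pkm2 is the only other member over 50%, at 57.1%. The authors' alignment kept reads with up to 50 positions, so the FPKM of these genes depends on how such reads were shared out and their levels are uncertain. Slc2a1, Slc16a1 and Slc16a3 had no such window, and 26 members had under 5%.

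**Figure D2:**
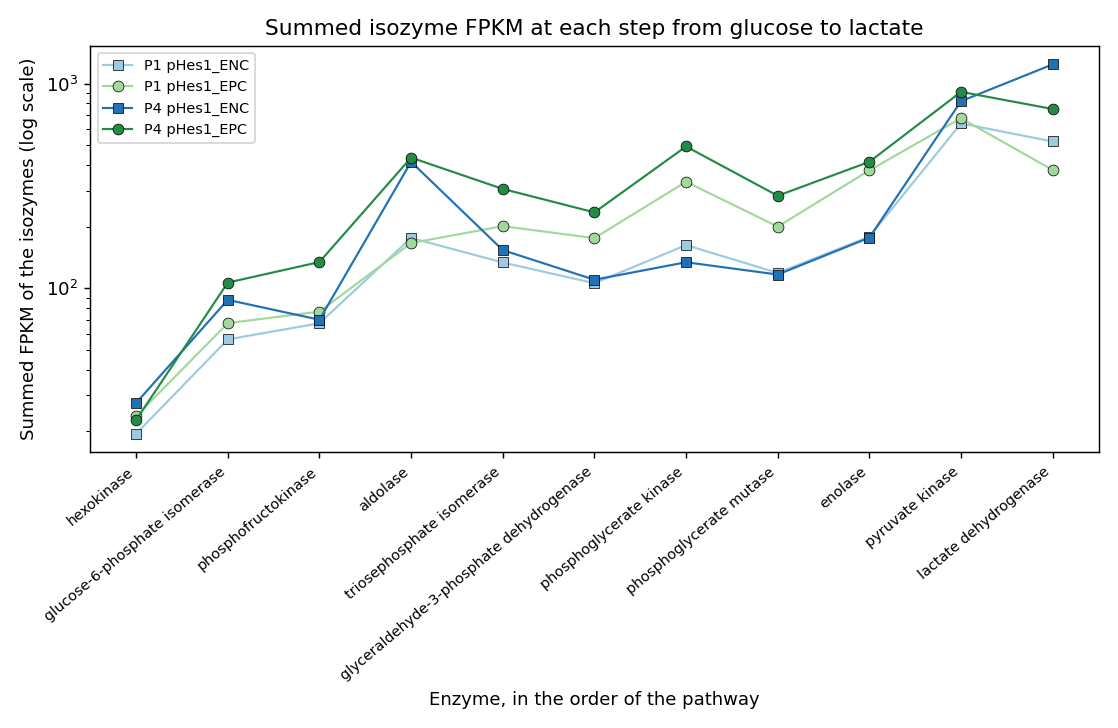
Summed FPKM of the isozymes (log scale, vertical axis) for the 10 enzymes from glucose to pyruvate and for lactate dehydrogenase, in the order of the pathway; each line is 1 library, with squares for pHes1_ENC and circles for pHes1_EPC. From triosephosphate isomerase to enolase both pHes1_EPC lines run above both pHes1_ENC lines, at aldolase the lines pair by age, and at lactate dehydrogenase the P4 pHes1_ENC line is the highest, at 1242.

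Neuronal and muscle enolase went the other way from Eno1. Eno2 (chr6:124710073-124719527), the enolase of neurons, was at 28.5 in pHes1_ENC and 8.69 in pHes1_EPC at P1 and at 62.2 and 23.4 at P4. The pHes1_EPC library held 0.305 times (0.261 to 0.367) as much at P1 and 0.376 times (0.340 to 0.424) as much at P4. Eno3, the enolase of muscle, was at 12.4 and 6.80 at P1 and at 17.6 and 10.3 at P4, with differences of -0.78 and -0.72. Eno2, Tpi1 and Gapdh lie near each other on chromosome 6, with 41082 bases between Eno2 and Tpi1 and 347555 between Tpi1 and Gapdh, although Eno2 differed between the fractions in the opposite direction to the other 2.

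Pyruvate kinase, the last step to pyruvate, was nearly level. Pkm2 was at 639 in pHes1_ENC and 678 in pHes1_EPC at P1 and at 821 and 912 at P4. Its differences of 0.09 and 0.15 turned negative under some scalings, down to -0.12 at P1 and -0.14 at P4. Pgam2, the muscle-type mutase, had an FPKM of 1.73 to 3.77 and Pklr, pyruvate kinase of liver and red cells, was under 0.1 everywhere.

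The lactate dehydrogenases parted between the fractions at P4. Ldha (chr7:54101174-54110997), the muscle-type subunit that favours lactate, was at 445 in pHes1_ENC and 329 in pHes1_EPC at P1 and at 1198 and 634 at P4. P4 pHes1_ENC was the highest value of any member in any library, and Ldha was lower in pHes1_EPC at both ages. The P1 ratio was 0.740 (0.705 to 0.772) and the P4 ratio was 0.530 (0.514 to 0.545). The P4 difference of -0.92 passed -1 with each of 3 other scalings. Ldhb (chr6:142438769-142456463), the heart-type subunit, was at 76.7 and 49.1 at P1 and at 44.1 and 117 at P4, ratios of 0.640 (0.569 to 0.738) and 2.66 (2.31 to 3.0). Ldha was thus 27.2 times as abundant as Ldhb in P4 pHes1_ENC and between 5.41 and 6.70 times in the other 3 libraries. Of the read-length windows of Ldha and Ldhb, 46.3% and 47.2% occur elsewhere in the genome.

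Of the lactate carriers 2 were higher in pHes1_EPC at both ages. Slc16a1 (chr3:104442591-104462385), the MCT1 carrier, was at 3.75 in pHes1_ENC and 15.3 in pHes1_EPC at P1 and at 1.48 and 11.8 at P4. Its P1 ratio of 4.09 (3.37 to 4.82) and its P4 ratio of 7.95 (6.19 to 10.2) were the largest of any member above an FPKM of 1. Slc16a3 (chr11:120809798-120820314), the MCT4 carrier of cells that export lactate, was at 17.9 and 43.9 at P1 and at 13.0 and 53.2 at P4, a ratio of 2.45 (2.17 to 2.77) and 4.09 (3.60 to 4.68). For both genes the pHes1_EPC libraries were above the pHes1_ENC libraries without overlap. Slc16a7, the MCT2 carrier of neurons, stayed under 1 in all libraries. Bsg, which encodes basigin, was at 112 and 142 at P1 and at 159 and 258 at P4, with differences of 0.34 and 0.69.

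The 250 bases before the start of these carriers, of Pgk1 and, for contrast, of Eno2 are printed from RefSeq (GRCm38.p6, on the strand of the gene, ending at the base before the start). They are shown because Slc16a1, Slc16a3 and Pgk1 were higher and Eno2 lower in pHes1_EPC at both ages, and because genes of this pathway are textbook targets of hypoxia-inducible factor. Capitals mark the core letters of its binding motif, ACGTG or GCGTG, on either strand.
Slc16a1, chr3:104638414-104638663, plus strand: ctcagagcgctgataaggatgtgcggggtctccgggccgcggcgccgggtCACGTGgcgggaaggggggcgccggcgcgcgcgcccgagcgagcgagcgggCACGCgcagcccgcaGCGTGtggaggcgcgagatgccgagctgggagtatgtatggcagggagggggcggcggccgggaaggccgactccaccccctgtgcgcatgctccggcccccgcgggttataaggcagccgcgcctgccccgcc
Slc16a3, chr11:120948817-120949066, plus strand: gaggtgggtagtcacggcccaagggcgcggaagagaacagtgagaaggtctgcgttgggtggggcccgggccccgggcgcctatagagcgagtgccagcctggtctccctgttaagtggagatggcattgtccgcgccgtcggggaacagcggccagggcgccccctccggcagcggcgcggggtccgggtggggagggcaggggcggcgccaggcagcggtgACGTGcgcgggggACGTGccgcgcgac
Pgk1, chrX:106186850-106187099, plus strand: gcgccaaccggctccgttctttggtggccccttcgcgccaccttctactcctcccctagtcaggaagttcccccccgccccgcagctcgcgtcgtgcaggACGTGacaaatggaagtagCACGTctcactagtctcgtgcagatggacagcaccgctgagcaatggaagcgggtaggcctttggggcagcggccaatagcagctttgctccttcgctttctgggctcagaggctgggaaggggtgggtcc
Eno2, chr6:124769674-124769923, minus strand: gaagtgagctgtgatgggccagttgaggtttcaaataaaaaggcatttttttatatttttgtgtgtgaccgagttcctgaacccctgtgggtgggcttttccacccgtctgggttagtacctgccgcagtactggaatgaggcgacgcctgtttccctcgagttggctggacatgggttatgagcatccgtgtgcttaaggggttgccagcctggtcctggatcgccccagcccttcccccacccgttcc

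Slc16a1 held 4 matches, of which 2 overlap in CACGTG, Slc16a3 and Pgk1 held 2 each, and Eno2 held none in this window. Over all genes in the RefSeq table, 16.6% of windows of this length held ACGTG, 28.2% held GCGTG and 38.6% held either. Of the 38 members 35 had at least 1 window in the table, and 30 of these (85.7%) held either motif in a window, against 41.5% of all 27025 genes and 65% of the 6020 genes at or above an FPKM of 10 in a library. All 6 members that were higher at both ages had a match, and so did Pdk2, which was lower. Both motifs contain CG, and the median number of CG per window was 13 in the members, 17 in genes at or above an FPKM of 10 and 6 over all windows. A match is a description of the letters and not a measured site.

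The kinases that switch off pyruvate dehydrogenase were divided by isozyme. Pdk1 was at 7.02 in pHes1_ENC and 14.4 in pHes1_EPC at P1 and at 4.12 and 16.6 at P4, with differences of 0.94 and 1.78. Pdk3 was at 6.27 and 14.2 at P1 and at 5.88 and 14.3 at P4, a ratio of 2.27 (1.81 to 2.88) and 2.43 (1.82 to 3.10). Its P1 difference of 1.07 fell under the threshold when libraries were rescaled to the same FPKM total, and its P4 difference of 1.15 did so with each of 3 other scalings. Pdk2 (chr11:94887572-94902685) was at 27.9 and 8.64 at P1 and at 69.3 and 24.5 at P4, a ratio of 0.309 (0.263 to 0.378) and 0.354 (0.319 to 0.404). Pdk4 was under 1 in all libraries. Summed over the 4 kinases, pHes1_EPC held 0.910 times the FPKM of pHes1_ENC at P1 and 0.701 times at P4, so the kinases differed in kind rather than in a common direction. Neither E1 subunit of their target passed the threshold between the fractions, although Pdha1 had a P4 ratio of 1.55 (1.38 to 1.75). Pdha1, the catalytic E1 alpha subunit, was at 17.7 and 20.5 at P1 and at 19.5 and 30.2 at P4, and Pdhb, the beta subunit, was at 53.8 and 46.7 at P1 and at 72.6 and 71.4 at P4.

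The 4 Pfkfb genes encode the bifunctional enzymes that set the level of fructose 2,6-bisphosphate, an activator of phosphofructokinase. None of the 4 passed the threshold between the fractions. Pfkfb3, the form with the strongest kinase activity, was at 9.22 in pHes1_ENC and 5.11 in pHes1_EPC at P1 and at 5.30 and 11.4 at P4, so the order of the fractions turned, with differences of -0.74 and 0.98. Pfkfb2 was at 11.7 and 6.46 at P1 and at 14.8 and 8.25 at P4, lower in pHes1_EPC at each age by nearly the same ratio of 0.552 (0.488 to 0.622) and 0.556 (0.495 to 0.623). Pfkfb4 was at 5.0 and 2.21 at P1 and at 5.50 and 3.24 at P4. Pfkfb1 stayed between 0.786 and 1.01.

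Hif1a, the oxygen-regulated subunit of hypoxia-inducible factor, was at 91.1 in pHes1_ENC and 66.6 in pHes1_EPC at P1 and at 142 and 71.1 at P4. Its mRNA was thus lower in the fraction where Slc2a1, Pgk1, Eno1, Slc16a1 and Slc16a3 were higher, with ratios of 0.731 (0.694 to 0.771) and 0.501 (0.477 to 0.527). The factor is controlled mainly through the stability of its protein, which was not measured here. The P4 difference of -0.99 passed -1 with each of 3 other scalings. Of 13 other textbook targets of the factor, 1 was higher and 2 were lower in pHes1_EPC at P1, and 2 were higher and 1 lower at P4. Of all genes, 6.1% and 9.85% were higher at P1 and P4, and 6.79% and 5.42% were lower. Of genes at or above an FPKM of 10, 11.5% and 16.6% were higher and 10.6% and 10% were lower. Egln3, an oxygen sensor, was the target that was higher at both ages, at 1.84 and 4.96 at P1 and at 1.13 and 7.39 at P4. Ndrg1, a differentiation-related gene, was lower at both, at 212 and 73.6 at P1 and at 566 and 179 at P4. Vegfa, the angiogenic factor, was at 59.8 and 75.4 at P1 and at 60.4 and 112 at P4, with differences of 0.33 and 0.88. Epas1, which encodes the related subunit HIF-2 alpha, was at 2.29 and 4.19 at P1 and at 3.74 and 9.85 at P4.

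Counted over the list at P1, 6 of 38 members (15.8%) were higher in pHes1_EPC, against 6.1% of all genes. Lower were 2 of 38 (5.26%), against 6.79% of all genes. The median difference of the 38 members was 0.17, against 0 for all genes. Over the 27 members at or above an FPKM of 10 in 1 of the 2 libraries, 22.2% were higher and 7.41% lower, with a median of 0.26. Genes chosen the same way gave 11.5%, 10.6% and 0.06. At P4 13 members (34.2%) were higher, against 9.85% of all genes, and 2 (5.26%) were lower, against 5.42%. The median of the 38 members was 0.45 at P4, against 0 for all genes, and other scalings took it to between 0.25 and 0.34. Over the 29 members at or above an FPKM of 10, 41.4% were higher and 6.9% lower, with a median of 0.69 as deposited. Genes chosen the same way gave 16.6%, 10% and 0.19. The members just past the threshold at P4 were Slc2a3 at 1.02 and Eno2 at -1.37, and those just short of it were Tpi1 at 0.99 and Hif1a at -0.99.

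The 6 members called higher at P1 were called higher at P4 too, and the 7 added at P4 were Slc2a3, Pfkp, Aldoc, Gapdh, Pgam1, Ldhb and Pdk1. The difference was larger at P4 than at P1 in 28 of the 34 members with an FPKM of at least 1 in a library (82.4%), against 63.0% of 12941 genes chosen the same way. With libraries rescaled to the same total these shares became 61.8% and 50.7%. A negative difference that shrank in size counts as larger, as in Eno2 (-1.60 to -1.37) and Pdk2 (-1.59 to -1.46). Slc2a1, Ldha, Hif1a, Hk1, Pfkfb1 and Pfkfb2 were the 6 members whose signed difference was not larger at P4. Of these, Ldha went from -0.43 to -0.92 and Hif1a from -0.45 to -0.99, so the fractions lay further apart. No test of the change with age was possible.

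**Figure D3:**
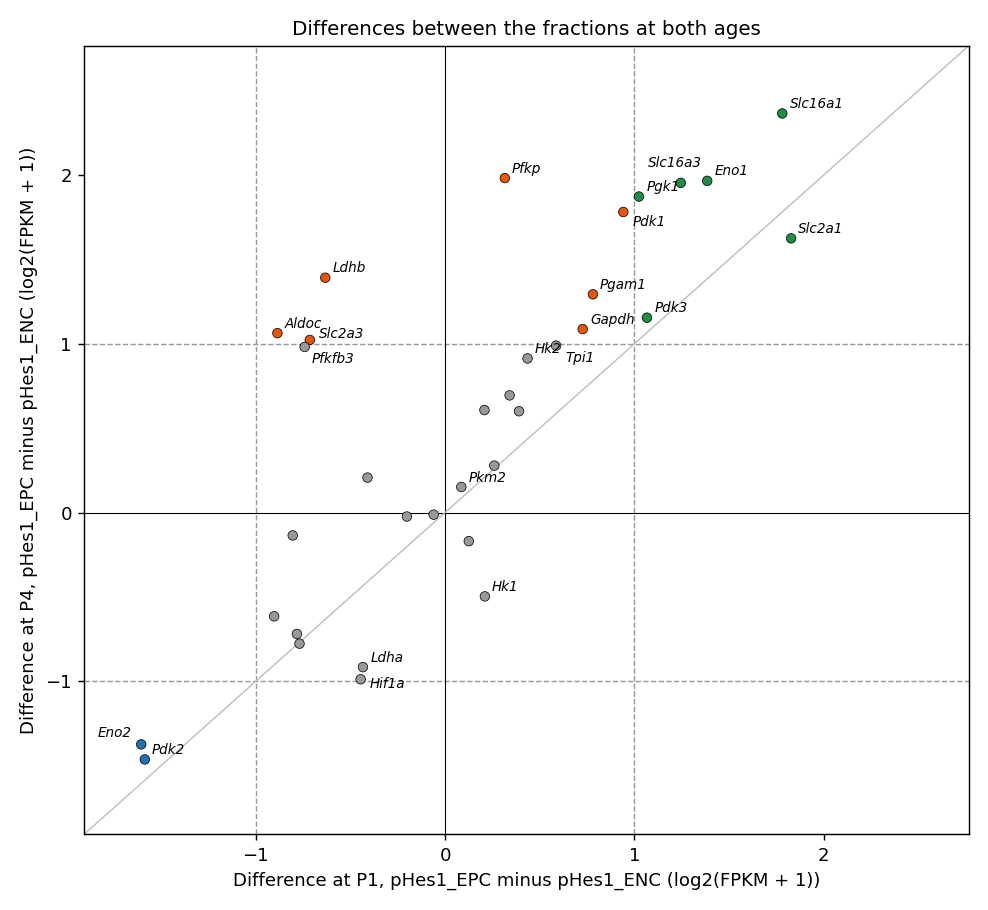
Difference between pHes1_EPC and pHes1_ENC on log2(FPKM + 1) at P1 (horizontal axis) and P4 (vertical axis), 1 point for each of the 34 members with an FPKM of at least 1 in a library. Dashed lines mark the threshold of 1 in size and the grey line marks equal differences; the 6 green points passed 1 at both ages, the 2 blue points passed -1 at both, and orange points, such as Pfkp and Ldhb, passed it at P4 only.

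How the libraries are scaled matters at P4, because the FPKM of the P4 pHes1_EPC library summed to 372001 and those of the other 3 to between 277423 and 303862. Rescaling to the same total, median-of-ratios size factors and quantile normalization moved the P4 median difference of genes at or above an FPKM of 10 from 0.19 to -0.13, -0.03 and 0.0033. Members then counted as higher numbered 9, 9 and 8 in place of 13, and as lower 5, 4 and 4 in place of 2. Under all 3 of these settings 8 members were higher at P4: Slc2a1, Pfkp, Pgk1, Eno1, Ldhb, Pdk1, Slc16a1 and Slc16a3. At P1 this held for 4: Slc2a1, Eno1, Slc16a1 and Slc16a3. Eno2 and Pdk2 stayed lower at both ages. The members newly counted as lower at P4 were Ldha and Hif1a under all 3 and Pfkfb2 under the first.

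Isozyme shares within 1 library are not altered by a common factor, as in the first 2 of these scalings. Eno1 made up 77.1% of the enolase FPKM in P1 pHes1_ENC and 95.9% in P1 pHes1_EPC, and 54.8% and 91.9% at P4, while Eno2 made up 15.9% and 2.30% at P1 and 35.2% and 5.64% at P4. Thus the neuronal form had its larger share in pHes1_ENC at both ages. Pdk2 made up 67.6% of the FPKM of its family in pHes1_ENC and 23.0% in pHes1_EPC at P1, and 87.4% and 44.1% at P4. Conversely, Pdk1 and Pdk3 made up 38.3% and 37.9% in P1 pHes1_EPC and 29.8% and 25.7% in P4 pHes1_EPC.

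In other families the P4 pHes1_EPC or the P4 pHes1_ENC library stood apart. Pfkp made up 39.2% of phosphofructokinase in P4 pHes1_EPC and between 17.9% and 23.8% in the other libraries. Aldoc made up 10.1% of aldolase there and between 1.41% and 4.94% elsewhere, and Pfkfb3 made up 48.2% of its family there and between 19.9% and 34.6% elsewhere. In P4 pHes1_ENC, by contrast, Ldhb fell to 3.55% of lactate dehydrogenase, from 13.0% to 15.6% in the other libraries, and Hk2 to 8.10% of Hk1 to Hk3, from 18.1% to 22.4%. Slc16a3 was the main lactate carrier in all libraries, with 73.0% to 86.7%.

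**Figure D4:**
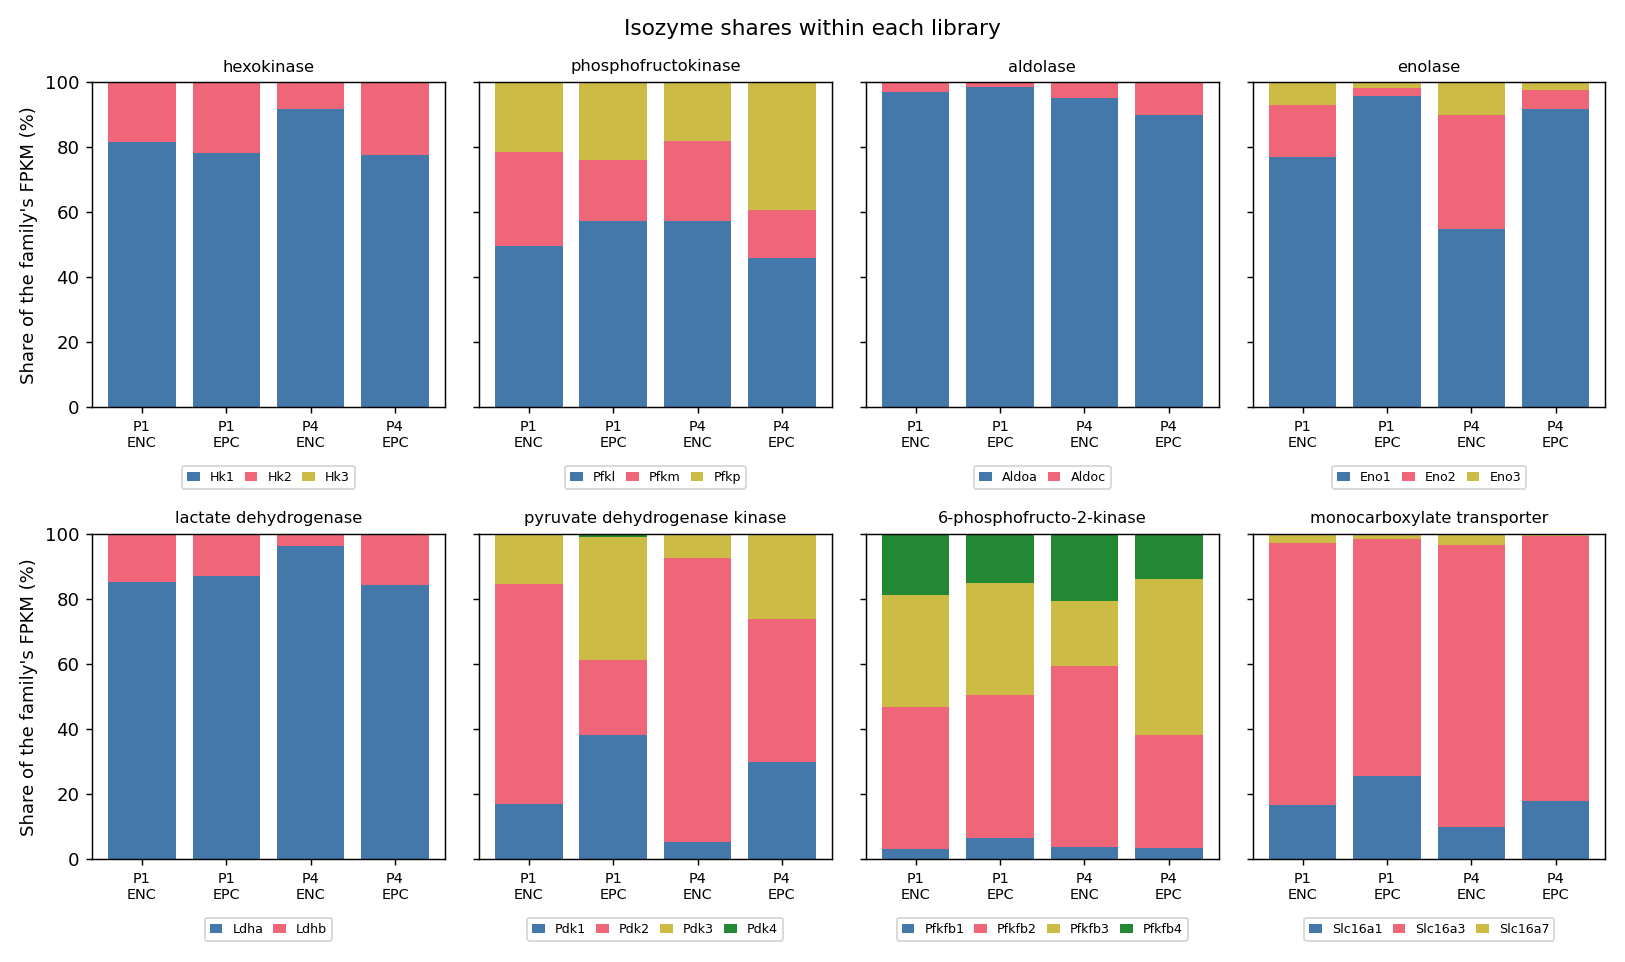
Share of each isozyme in the summed FPKM of its family (%, vertical axis), for 8 families; each bar is 1 library, in the order P1 pHes1_ENC, P1 pHes1_EPC, P4 pHes1_ENC and P4 pHes1_EPC. In the enolase panel Eno1 fills 95.9% and 91.9% of the pHes1_EPC bars, and in the pyruvate dehydrogenase kinase panel Pdk2 fills 67.6% and 87.4% of the pHes1_ENC bars.

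The ages were compared within each fraction, with the same 4 libraries, so these values are not independent of those above. In pHes1_EPC 7 members (18.4%) were higher at P4 than at P1, against 4.17% of all genes and 7.56% of genes at or above an FPKM of 10, and none was lower, against 2.57% and 4.72%. In pHes1_ENC 5 (13.2%) were higher, against 2.77% and 6.03%, and 1 was lower (2.63%), against 5.94% and 6.79%. Of the members at or above an FPKM of 10, 25% of 28 in pHes1_EPC and 20% of 25 in pHes1_ENC were higher, and none was lower. The median of all 38 members was 0.44 in pHes1_EPC and 0.04 in pHes1_ENC, against 0 for all genes. Over members at or above an FPKM of 10 it was 0.54 and 0.32, against 0.24 and 0.08 for genes chosen the same way. Under the 3 other scalings the median of the 38 members in pHes1_EPC was between 0.091 and 0.28.

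Aldoc, Aldoa, Eno2 and Pdk2 were higher at P4 in both fractions. Aldoc had the largest change of any member, 18.8 times (13.2 to 24.4) in pHes1_EPC and 3.97 times (2.96 to 5.13) in pHes1_ENC, and Aldoa was at 2.38 times (2.25 to 2.54) and 2.31 times (2.18 to 2.45). Eno2 was at 2.69 times (2.23 to 3.18) in pHes1_EPC and 2.19 times (1.96 to 2.41) in pHes1_ENC. The 7 rod markers were all higher at P4 in both fractions, with a summed FPKM of 427, 28.8, 3018 and 586 in P1 pHes1_ENC, P1 pHes1_EPC, P4 pHes1_ENC and P4 pHes1_EPC. The part of rod transcripts in the change of these members was not tested. Ldha passed 1 in pHes1_ENC, at 1.43, and not in pHes1_EPC, at 0.94.

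Pfkp, Ldhb and Pfkfb3 passed 1 in pHes1_EPC, at 1.47, 1.24 and 1.03, and were at -0.19, -0.79 and -0.70 in pHes1_ENC. Slc2a3 was the member that was lower in pHes1_ENC, at -1.05, and it was at 0.68 in pHes1_EPC. In 4 of the 7 members higher in pHes1_EPC (Pfkp, Aldoc, Eno2 and Pdk2) and in 3 of the 5 higher in pHes1_ENC (Aldoc, Ldha and Pdk2) the call held under all 3 other scalings. Slc16a1 had the lowest change in pHes1_ENC after Slc2a3, at -0.94, and was at -0.35 in pHes1_EPC.

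**Figure D5:**
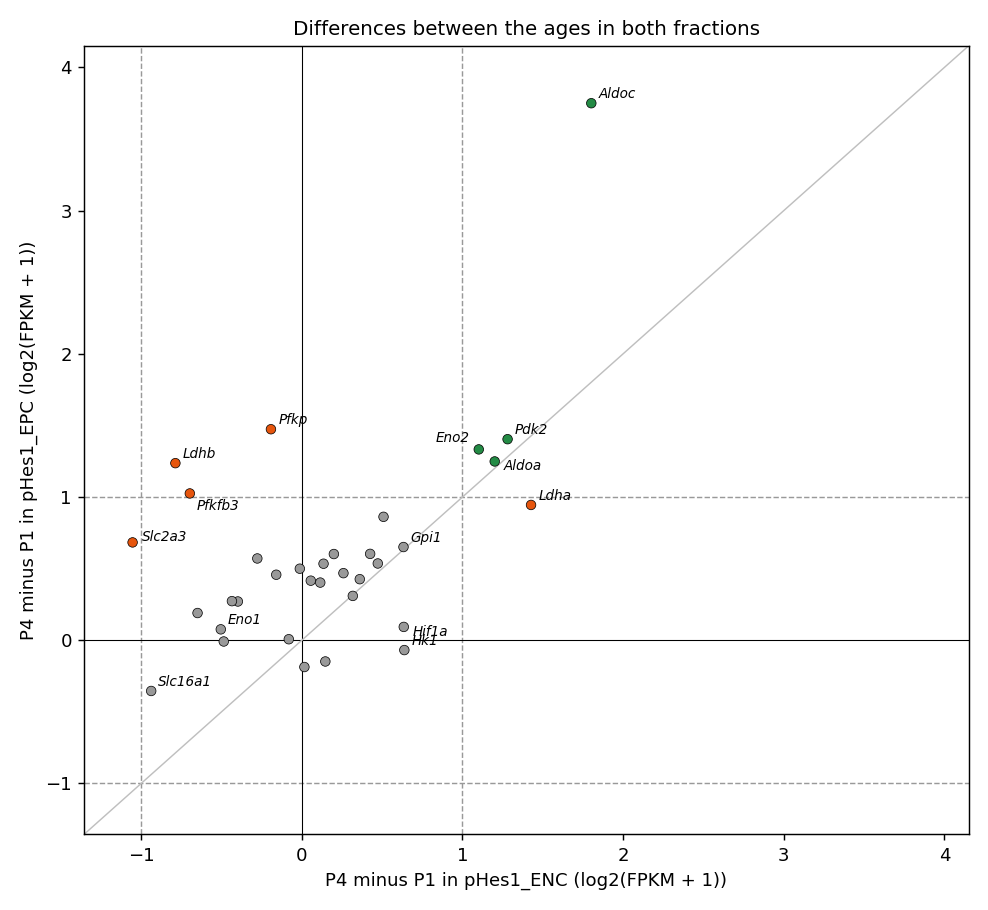
Difference between P4 and P1 on log2(FPKM + 1) in pHes1_ENC (horizontal axis) and pHes1_EPC (vertical axis), 1 point for each of the 34 members with an FPKM of at least 1 in a library. The 4 green points, Aldoc, Pdk2, Eno2 and Aldoa, passed 1 in both fractions, and the orange points passed the dashed threshold in 1 fraction only, with Pfkp, Ldhb and Pfkfb3 above it in pHes1_EPC.

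Genes of the neighbouring pathways, taken from 10 lists of carriers, further isozymes, sugar and mitochondrial pathways and hypoxia-inducible factor genes, were counted in the same way. Of the 103 found, 8 (7.77%) were higher and 5 (4.85%) lower in pHes1_EPC at P1, with a median difference of 0.06. At P4 17 (16.5%) were higher and 5 lower, with a median of 0.25. The shares that were higher compare with 6.1% and 9.85% of all genes and with 11.5% and 16.6% of genes at or above an FPKM of 10. For the shares that were lower, the values over all genes were 6.79% and 5.42%. The lists were not filtered on FPKM, so all genes are the like set. Between the ages, 9 (8.74%) were higher and 3 (2.91%) lower at P4 in pHes1_EPC. These compare with 4.17% and 2.57% of all genes and 7.56% and 4.72% of genes at or above an FPKM of 10. In pHes1_ENC 3 (2.91%) were higher and 7 (6.8%) lower, near the 2.77% and 5.94% of all genes. Among the 13 other carriers, Slc2a4, the insulin-regulated GLUT4, was higher in pHes1_EPC at both ages, at 0.921 and 4.93 at P1 and at 0.225 and 1.73 at P4. Emb, which encodes embigin, the other chaperone of lactate carriers, was at 6.41 and 12.0 at P1 and at 2.39 and 13.4 at P4, with differences of 0.81 and 2.09. Slc16a8, the lactate carrier of the pigment epithelium, had an FPKM of 0.384 to 2.57.

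Nxnl1, which encodes rod-derived cone viability factor, a secreted protein that binds basigin and promotes the uptake of glucose, was lower in pHes1_EPC at both ages, at 8.47 and 0.698 at P1 and at 56.2 and 8.68 at P4. This gene is expressed by rods.

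Markers of other cell types were looked at beside the results. Of 7 endothelial genes, the defining Pecam1, Cdh5 and Tek had an FPKM of at most 0.142 in every library, while Kdr, which retinal progenitors also express, was at 46.9 and 209 at P1 and at 12.0 and 189 at P4. Cldn5 was at 16.3, 3.49, 2.59 and 4.06 in P1 pHes1_ENC, P1 pHes1_EPC, P4 pHes1_ENC and P4 pHes1_EPC, and Flt1 was at most 1.41. Haemoglobin genes marked the pHes1_ENC libraries, and the 8 red cell genes summed to 214, 0.904, 514 and 8.86 in P1 pHes1_ENC, P1 pHes1_EPC, P4 pHes1_ENC and P4 pHes1_EPC. The 5 pigment epithelium genes found summed to 1.2, 0.834, 0.553 and 25.9, of which Ttr gave 23.1 in P4 pHes1_EPC and Rpe65 at most 0.422. The summed markers of cones, of amacrine and horizontal cells and of ganglion cells were more abundant in pHes1_ENC, where Eno2 and Pdk2 were higher too. The 5 bipolar cell genes summed to 5.25, 5.41, 9.86 and 7.86 in the same order of libraries. Single genes went the other way, as Prox1 and Rbpms were higher in pHes1_EPC at both ages without passing the threshold. The 6 cone genes summed to 86.4, 15.1, 101 and 37.0, the 5 amacrine and horizontal cell genes found to 56.3, 25.8, 76.0 and 28.5, and the 8 ganglion cell genes to 40.4, 22.4, 8.74 and 7.06. Of 7 microglia genes 3 were higher in pHes1_EPC at P1, and their sums were 2.09, 10.3, 7.30 and 10.3. The 8 cell cycle genes summed to 273, 1189, 70.1 and 488, the 8 progenitor genes to 889, 2519, 432 and 1561, and the 9 Müller glia genes to 384, 1257, 165 and 1948. These last 3 sums were higher in pHes1_EPC at both ages, as were Slc2a1, Eno1, Slc16a1 and Slc16a3, and the part of each cell type in these differences and in those of Eno2 and Pdk2 was not tested. Within the Müller glia list Clu was lower in pHes1_EPC at P1, at 3.33 and 0.997. In the progenitor list Pax6 and Rax had P1 differences of -0.95 and -0.10. At P4 all genes of these 2 lists had a difference above 0.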

How the data were processed

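The 4 libraries, 1 a group, were assigned to fraction and age by their titles. Reads of 36 bases from 1 end were mapped by the authors to mm9 with TopHat 2.0.8b, which kept reads with up to 50 positions, and they deposited gene FPKM from Cufflinks 2.1.1 with a 95% interval for each value. The gene annotation used is not given in the sources used here. FPKM were used without further scaling. Small RNAs were left out, and a symbol with several lines was represented by its highest FPKM, which left 21828 genes. Coordinates are those of the gene lines in mm9, written from 1.

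Differences are of log2(FPKM + 1), called past 1 in size. With 1 library in each group no difference between 2 groups was tested, and a model with fraction and age as terms, which would take the ages as replicates, was not fitted. Depth enters through the width of the intervals. Members, pathway lists and marker lists were chosen with earlier results of these data known. All members are named. Pathway genes are named where they were called in the same direction at both ages, and Vegfa, Epas1, Slc16a8, Emb, Nxnl1 and G6pdx always. Windows of 36 bases of the longest transcript were searched in the mm9 genome. Promoter windows come from RefSeq (GRCm38.p6). The alternatives were another pseudocount, a ratio without one, filters on FPKM and status, 3 scalings and other choices of line, interval or members. The calling was checked on simulated data. Python 3.11.15, numpy 2.4.6, pandas 2.3.3 and matplotlib 3.10.9 were used.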

Additional observations from a re-analysis of the deposited data

Results flagged for a closer look

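Between the fractions 6 members differed in opposite directions at P1 and P4, with the Cufflinks intervals of the fractions apart at each age. Among members with an FPKM of at least 1 in a library these were 6 of 34 (17.6%), against 5.69% of 12941 genes. Members are mostly abundant and so have narrow intervals, which were apart in 33 of 38 at P1 and 31 of 38 at P4. With 1 library in each group, the change of the difference was not tested. The difference at P4 minus that at P1, on log2(FPKM + 1), was 2.02 for Ldhb, 1.95 for Aldoc, 1.74 for Slc2a3, 1.72 for Pfkfb3, 0.62 for Pfkm and -0.71 for Hk1. Hk1, the common hexokinase, was the gene that turned from higher to lower in pHes1_EPC, and the other 5 turned from lower to higher. The sign of Pfkm at P4 rested on the scaling, with a difference of 0.21 as deposited and -0.07 with libraries rescaled to the same total. Of Ldhb, 47.2% of the read-length windows occur elsewhere in the genome.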

How the results depend on the processing

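No paired analysis was possible because the groups compared share 1 replicate number, with 1 library each, and for the same reason no replicate could be left out. Of the counts, medians and isozyme shares under the alternatives, 206 values stayed within the limits set and 22 moved. The median with age in pHes1_ENC, 0.04 as deposited, lay on either side of 0, at -0.04 after rescaling to the same total and over members with few windows elsewhere. With a pseudocount of 0.1, 5 members were lower at P1, the P4 median was 0.62 and 2 members were lower with age in pHes1_ENC. With an FPKM ratio above 2 and no pseudocount, 6 were lower at P1, and with age 2 were lower in pHes1_EPC and 4 in pHes1_ENC. Members with an FPKM of at least 1 had a P4 median of 0.65. With libraries rescaled to the same total, 5 were lower at P4 and the P4 median was 0.28. The same rescaling left 4 higher with age in pHes1_EPC, with a median of 0.14, and 2 lower in pHes1_ENC. With median-of-ratios size factors, 4 were lower at P4. With quantile normalization, 8 were higher and 4 lower at P4, with a median of 0.25, and with age 4 were higher in pHes1_EPC, with a median of 0.091, and 0 were lower in pHes1_ENC. Over the 26 members with under 5% of windows elsewhere, an alternative chosen after seeing the data, 8 were higher at P4, the median with age in pHes1_EPC was 0.27 and 3 were higher with age in pHes1_ENC. That set has fewer members by construction. Interval midpoints in place of the FPKM, also chosen after seeing the data, moved none of the counts and medians beyond those limits. Of the values for named members, 1135 stayed and 215 moved.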

Other observations

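Among 11 glycogen genes, 2 were higher and 1 was lower in pHes1_EPC at both ages. Over all genes, 6.1% were higher and 6.79% lower at P1, and 9.85% and 5.42% at P4. Gyg, which encodes glycogenin, the protein that starts a glycogen particle, had an FPKM of 4.74 in pHes1_ENC and 15.1 in pHes1_EPC at P1, while P4 gave 1.69 and 22.4. Gbe1, the branching enzyme, was at 7.39 and 18.0 at P1 and at 6.66 and 36.2 at P4. Pygm, the muscle-type phosphorylase that releases glucose from glycogen, was at 2.11 and 0.433 at P1 and at 4.30 and 1.31 at P4. The more abundant phosphorylase Pygb went the other way without passing the threshold, at 9.24 and 13.9 at P1 and at 9.95 and 13.1 at P4. The other 8 genes of this list passed the threshold at neither age, and the median difference over the list was 0.32 (P1) and 0.36 (P4).

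Of the mitochondrial routes, Pcx, pyruvate carboxylase, was the gluconeogenesis gene of 7 that was higher in pHes1_EPC at both ages, at 4.62 and 12.6 at P1 and at 1.69 and 7.74 at P4. Suclg2, a subunit of the succinyl-CoA ligase that makes GTP, was at 4.26 and 19.2 at P1 and at 0.984 and 17.5 at P4. As deposited, 14 of the 16 citric acid cycle genes had a difference above 0 at each age. Of genes at or above an FPKM of 10, 54.5% (P1) and 60.3% (P4) did. The medians of the 16 were 0.21 (P1) and 0.36 (P4), against 0.06 and 0.19 over those genes. Some of the 16 lay near 0 at P4, as Idh3g (0.05), Sdha (0.09) and Idh3a (0.14). Rescaling to the same total took the P4 median of genes at or above an FPKM of 10 to -0.13, and the count of 14 was not repeated under it. Slc25a13, the mitochondrial carrier of aspartate and glutamate that serves the NADH shuttle, was at 3.29 and 11.9 at P1 and at 3.84 and 11.5 at P4. In the pentose phosphate pathway, G6pdx, which makes its first NADPH, was nearly level, at 16.1 and 12.2 at P1 and at 17.4 and 19.1 at P4. Of the 8 genes of that pathway none was called at P1, and 2 were higher and 1 lower at P4.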
